A study of Mus musculus with 15 samples.

Results

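B20-4.1.1 is an antibody that binds vascular endothelial growth factor A (VEGF-A), and its effect on gene expression in mouse mammary tumours is described here gene by gene. The comparison takes the arrays whose titles name B20 at the end of treatment against those whose titles name vehicle at the end of treatment, which are 7 of the 15 arrays of the series: 4 B20 and 3 vehicle. All tumours of these 2 groups came from female MMTV-PyMT mice, in which the MMTV promoter drives the polyoma middle T oncogene in mammary epithelium, so the tumour and its vessels belong to the same animal and the oncogene is shared by treated and control tumours. Dosing began at 7 weeks of age. B20 was given into the peritoneum at 5 mg/kg, 2 times a week, while the other drug of the series, nintedanib (4 arrays), was given by mouth at 85 mg/kg a day. The last 4 arrays were titled as tumours taken before treatment, though replicate 4 of them also carries a vehicle label, and its title was followed. That array, with an interferon list mean of 1.43 (described below), enters only the spread shared by all groups, and a fit without it also called 0 genes. Each array carried labelled total RNA from whole dissected tumour. The labels do not say whether replicates came from separate animals, nor how long treatment lasted or what the vehicle contained, so the p-values rest on variation among these arrays, part or all of which may be technical.

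Blood vessels grow toward VEGF-A, which tumour cells release when oxygen is low and which binds VEGF receptors on endothelial cells. At the front of a new sprout, endothelial tip cells respond most strongly, switch on genes such as Esm1 and lay down basement membrane, while Notch signalling holds back their neighbours. B20 takes away the ligand, whereas nintedanib blocks the kinases of the VEGF, FGF and PDGF receptors. Polyoma middle T tumours are well vascularised and hold many macrophages and other immune cells.

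No gene passed the test across the whole array. Of 28025 genes tested with limma, 0 were called at an adjusted p under 0.05 (0% of genes tested), and the lowest adjusted p was 0.254. At an unadjusted p under 0.05 there were 912 genes, 504 higher in B20 (1.8%) and 408 lower (1.46%). All 4 B20 arrays lay above all 3 vehicle arrays for 786 genes (2.8% of genes tested) and below them for 725 (2.59%), and these shares are the background for the counts that follow. Values are log2 signal relative to the 75th percentile of the array, a level on a probe's own scale, and differences are B20 minus vehicle with the standard error (SE) of the fit. Of all genes 55.1% were higher in B20. The median difference over all genes was 0.04, with quartiles of -0.16 and 0.24, and the median SE was 0.29. A difference of 1 or more was reached by 695 genes upward and 236 downward. Because nothing was called, the values below describe these 7 arrays: a group of genes is given by its counts and median beside those of all genes.

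The arrays differed in their signal from other tissue. In whole dissected tumour, fewer cells of a type and less RNA per cell cannot be told apart. Markers of adipocytes averaged 1.96, 0.94, 1.28 and -0.22 on B20 arrays 1 to 4 and -1.47, -0.75 and -0.17 on vehicle arrays 1 to 3. Of the 16 tested, 15 were higher in B20, with a median difference of 1.85, and Adipoq, which encodes the fat hormone adiponectin, differed by 3.02 ± 0.98 (SE), or 1.96 without vehicle array 1. Skeletal muscle markers averaged 5.61, -0.20, 2.33 and -0.62 on the B20 arrays and -1.14, -1.0 and 1.49 on the vehicle arrays. B20 array 1 stood far above the rest, and the median muscle difference of 2.13 was 0.78 without it. The muscle creatine kinase Ckm differed by 2.99 ± 1.68 (SE), or 1.53 without that array. For red blood cell genes, of which 3 were tested, the median difference was 1.10, with a mean of 1.57 within slide 1 and -0.90 within slide 2, described next, and the alpha globin Hba-a1 differed by 1.15 ± 0.89 (SE), or 0.53 without B20 array 1.

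The arrays also came from different slides. Slide 1 held B20 arrays 1 to 3 with vehicle arrays 1 and 2, and slide 2 held B20 array 4 with vehicle array 3, so each contrast was read within both. Within slide 1 the adipocyte markers were higher in B20 by 2.5 on average and the muscle markers by 3.65. Within slide 2 these differences were -0.05 and -2.11. Luminal epithelial markers were present throughout: 15 of the 16 were well above background on all 7 arrays. Of the 16, 10 were higher in B20 and 6 lower, with a median difference of 0.11 and a range of -0.41 to 1.30, and the list mean differed by 0.03 within slide 1 and 0.55 within slide 2. The widest difference was that of Foxa1, a luminal lineage factor, at 1.30 ± 0.97 (SE), or 0.57 on slide 1 alone. The luminal keratin Krt18 averaged 8.50 in B20 and 8.40 in vehicle, and the epithelial adhesion molecule Epcam 4.26 and 4.15. Krt18 and Epcam were chosen after their values were seen.

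**Figure D1:**
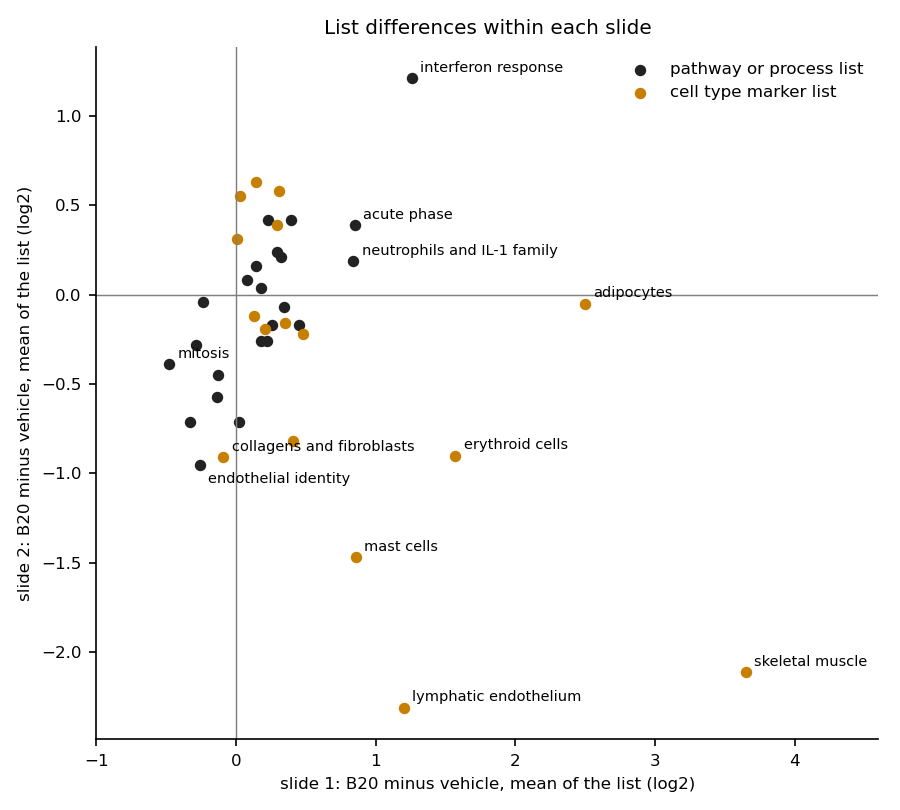
Mean B20 minus vehicle difference (log2) of each of 39 gene lists within slide 1 (x axis, 3 B20 and 2 vehicle arrays) and within slide 2 (y axis, 1 B20 and 1 vehicle array). The interferon list lies at 1.26 and 1.21, whereas skeletal muscle lies at 3.65 and -2.11 and adipocytes at 2.5 and -0.05.

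VEGF ligands differed in both directions. Vegfa, the antibody's own target, was at 2.28, 1.99, 1.94 and 0.96 on the B20 arrays and at 1.44, 0.44 and 1.36 on the vehicle arrays. The groups overlapped through B20 array 4, and the difference of 0.72 ± 0.46 (SE) did not pass the test (limma adjusted p = 0.999). It was 1.14 within slide 1 and -0.40 within slide 2, and 0.40 without vehicle array 2. Vegfc, a ligand better known for lymphatic growth, stood at 0.24, 0.02, 0.52 and 0.34 with B20 and at 1.16, 0.23 and 1.10 with vehicle. Its difference was -0.56 ± 0.24 (SE), with vehicle array 2 inside the B20 range. The remaining ligands differed by -0.09 (Vegfb), -0.76 (Vegfd) and 0.22 (Pgf, placental growth factor), each with overlapping groups.

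Of the VEGF receptors and coreceptors 4 were lower and Kdr was higher, with large errors. Flt1, which encodes VEGF receptor 1 and traps ligand, differed by -0.25 ± 0.44 (SE), and Flt4, the lymphatic receptor, by -0.69 ± 0.90 (SE). Kdr, the main signalling receptor of vessels, differed by 0.35 ± 0.27 (SE) on the brighter of its 2 probes and by -0.75 on the other, so its direction depends on the probe. The coreceptors Nrp1 and Nrp2 differed by -0.55 ± 0.36 and -0.35 ± 0.29 (SE), where normexp background correction gave -0.13 for Nrp1 and slide 1 alone gave -0.02 for Nrp2. Of these 10 ligands and receptors 3 were higher and 7 lower, 0 were separated between groups, and the median difference was -0.30, or 0.01 on slide 1 alone.

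Most tip cell genes were lower with B20, led by Esm1, a secreted proteoglycan of sprouting endothelium that VEGF induces. Esm1 was at -4.04, -1.68, -2.70 and -1.97 on the B20 arrays and at 0.31, -0.96 and 0.49 on the vehicle arrays. All 4 B20 arrays lay below all 3 vehicle arrays, with B20 array 1 the lowest and vehicle array 2 the nearest to the treated group. The difference was -2.54 ± 0.64 (SE), a 5.83-fold lower signal (unadjusted p = 0.00145, limma adjusted p = 0.999), and it was -2.48 within slide 1 and -2.46 within slide 2. It ranged from -3.0 to -1.70 over the alternatives. Of all genes with a symbol that were well above background on all 7 arrays, Esm1 had the lowest p among those lower in B20.

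Other genes of the 20 in the tip cell list were less separated. Trp53i11 differed by -0.59 ± 0.20 (SE), with the B20 arrays between 2.63 and 2.78 and the vehicle arrays between 2.91 and 3.46. Plvap, which forms the diaphragms of permeable capillaries, differed by -0.78 ± 0.34 (SE), and the tip cell factor Angpt2 by -0.53 ± 0.31 (SE), or -0.26 with normexp. Dll4, the Notch ligand of tip cells, differed by -0.12 ± 0.28 (SE), a value whose sign turned with normexp. These last 3 were chosen after their values were seen. Cxcr4, a chemokine receptor carried by tip cells and by many leukocytes, went the other way at 0.71 ± 0.23 (SE), with B20 array 2 (-0.32) inside the vehicle range of -0.68 to -0.12. In all, 14 were lower and 6 higher, 4 lay wholly below vehicle (20% against 2.59% of all genes) and 0 wholly above, and the median difference was -0.42. The list mean was -0.12, 0.22, 0.21 and -0.08 on the B20 arrays and 0.81, 0.06 and 0.63 on the vehicle arrays. On this mean the groups overlapped, with vehicle array 2 inside the B20 range.

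Pan-endothelial genes were lower in nearly every case. Of 30 endothelial identity genes 28 were lower and 2 higher with B20, and 5 were lower at an unadjusted p under 0.05 (background 1.46%). For 7 of them all B20 arrays lay below all vehicle arrays (23.3% against 2.59% of all genes). The mean of the list was -0.80, -0.88, -0.73 and -1.16 on the B20 arrays and -0.37, -0.71 and -0.21 on the vehicle arrays, so the groups were apart but vehicle array 2 came within reach of B20 array 3. The median difference was -0.44, with a range of -0.56 to -0.28 over the alternatives. It was in the same direction on both slides, by -0.26 and -0.95 on average. Of the 30 genes 25 were lower in both, beside 23.7% of all genes.

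Tie1, an orphan receptor that modulates angiopoietin signalling, was at -2.79, -2.71, -2.66 and -3.66 with B20 and at -1.48, -2.27 and -1.83 with vehicle. Its groups did not overlap, and the difference of -1.10 ± 0.37 (SE) became -0.55 with normexp. Eng, a TGF-beta coreceptor of proliferating endothelium, was at -1.07, -1.14, -0.67 and -1.36 against -0.14, -0.65 and 0.01. Here B20 array 3 and vehicle array 2 nearly met, and the difference was -0.80 ± 0.31 (SE).

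The junction protein Esam was at -0.16, -0.08, 0.06 and -0.30 with B20 and at 0.74, 0.22 and 0.95 with vehicle, a difference of -0.76 ± 0.29 (SE) without overlap. Sox18, a transcription factor of endothelial cells, differed by -1.04 ± 0.41 (SE), or -0.65 with normexp. Among the most widely used vessel markers, chosen after their values were seen, Emcn differed by -0.74 ± 0.33 (SE) and -0.39 with normexp, Cdh5 (VE-cadherin) by -0.50 ± 0.36 (SE) and Pecam1 (CD31) by -0.34 ± 0.20 (SE). Leaving out vehicle array 3 gave -0.21 for Cdh5, and leaving out vehicle array 1 gave -0.17 for Pecam1. Pcdh12, a protocadherin of endothelial cells found through its low p rather than in a list, differed by -0.81 ± 0.26 (SE), with all B20 arrays below all vehicle arrays.

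**Figure D2:**
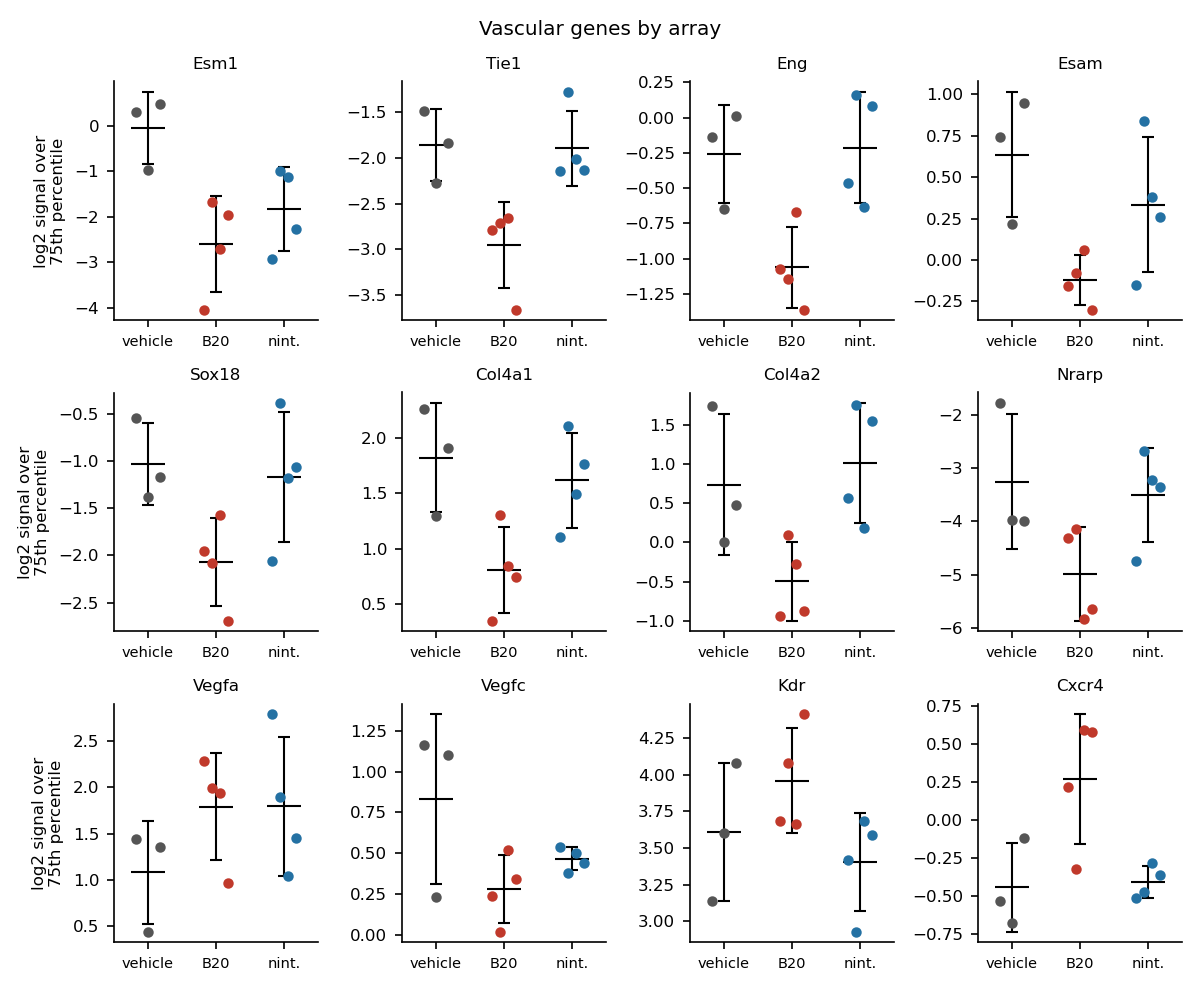
Levels of 12 vascular genes on each array (y axes, log2 signal relative to the 75th percentile of the array) for vehicle (3), B20 (4) and nintedanib (4), with group mean ± SD. Esm1, Tie1, Eng and Esam show B20 arrays below every vehicle array, while Vegfa and Kdr overlap.

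Notch genes were divided, 6 higher and 7 lower of 13, with a median of -0.12. Nrarp, a target and feedback inhibitor of Notch, was at -4.30, -4.14, -5.83 and -5.63 with B20 and at -1.79, -3.98 and -3.99 with vehicle. The groups were apart by little, only 2 B20 arrays were well above background, and the difference of -1.72 ± 0.61 (SE) became -0.38 with normexp. The endothelial receptor Notch4 differed by -0.64 ± 0.29 (SE), or -0.42 with normexp, and the target Hey1 by 0.38 ± 0.18 (SE).

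Among 18 angiopoietin, ephrin and guidance genes 14 were lower and 4 higher, with a median of -0.27 that ranged from -0.45 to -0.03 over the alternatives. Tie1, Tek and Robo4 of this list also count among the endothelial identity genes, and Angpt2 among the tip cell genes. Angpt1, the pericyte-derived agonist of the Tek receptor, was 0.49 ± 0.23 (SE) higher, or 0.24 on slide 1 alone. Efnb2, an arterial ephrin, differed by -0.46 ± 0.22 (SE), and its other probe gave 0.41. Thbs2, an inhibitor of vessel growth, differed by -0.67 ± 0.29 (SE), or -0.42 without vehicle array 1. Of 18 FGF and PDGF genes 6 were higher and 12 lower, with a median of -0.10. Fgf10, a stromal ligand for the epithelium, was well above background on 2 B20 arrays and 0 vehicle arrays. Its signal was 1.7-fold higher in B20 with vehicle arrays raised to the background limit and B20 arrays as measured. That is not a lower bound, since the remaining B20 arrays were not well above background. Within slide 2, Fgf10 was at -5.95 on B20 array 4 and -5.87 on vehicle array 3. The authors' value table gave a log2 difference of 0.35. Pericyte and smooth muscle markers, 5 higher and 9 lower of 14, had a median of -0.07, or 0.18 on slide 1 alone. Their mean difference was 0.41 within slide 1 (10 higher, 4 lower) and -0.82 within slide 2 (1 higher, 13 lower). Rgs5, a pericyte marker, differed by -0.83 ± 0.39 (SE) without overlap. Its groups all but touched, with B20 array 2 at 0.23 and vehicle arrays 2 and 3 at 0.24 and 0.23. Des of the same list differed by 1.80 ± 1.53 (SE) with overlap.

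Type IV collagen, the main scaffold of vessel basement membrane, had lower levels with B20. Col4a1 was at 0.35, 1.30, 0.84 and 0.74 with B20 and at 2.26, 1.29 and 1.91 with vehicle. Vehicle array 2 and B20 array 2 met at nearly the same level, and the difference was -1.01 ± 0.29 (SE, unadjusted p = 0.00353), with -0.95 on slide 1 and -1.17 on slide 2. Its partner chain Col4a2, at -0.94, 0.10, -0.27 and -0.87 against 1.73, 0.00 and 0.48, differed by -1.23 ± 0.45 (SE), or -0.73 without vehicle array 1. The linker protein Nid2 differed by -0.91 ± 0.37 (SE), though by -0.38 on slide 1 alone.

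The 16 basement membrane genes comprised 12 lower and 4 higher, 1 with separated groups (6.25% against 2.59% of all genes), with a median of -0.27, or -0.12 on slide 1 alone. Col4a1, Col4a2 and Nid2 also count in the tip cell list, so the counts of these lists share genes. Interstitial collagen and fibroblast genes were lower in 17 of 19 with a median of -0.35, but this was -0.06 on slide 1 alone and -0.11 without vehicle array 3. Col6a2, a microfibril collagen chain, differed by -0.94 ± 0.43 (SE), or -0.53 without vehicle array 1, and Thy1, a fibroblast surface protein, by -0.66 ± 0.31 (SE), or -0.28 on slide 1. Timp2, an inhibitor of matrix proteases, differed by -0.61 ± 0.28 (SE), or -0.38 as the mean of its 2 probes.

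Interferon-stimulated genes had the largest median difference of the pathway lists. Type I interferon acts through transcription factors that bind a response element in the promoters of antiviral genes. All 31 measured members of the list were higher with B20, 24 of them at an unadjusted p under 0.05 (background 1.8%), and 25 had every B20 array above every vehicle array (80.6% against 2.8% of all genes). The median difference was 1.24, between 1.03 and 1.42 over the alternatives, where 29 to 31 members were higher. Per array the list mean was 1.34, 1.65, 1.52 and 1.58 with B20 and 0.66, -0.16 and 0.37 with vehicle. The B20 arrays lay close together, whereas the vehicle arrays were spread and vehicle array 2 was lowest. The difference was 1.26 within slide 1 and 1.21 within slide 2, which held 1 B20 and 1 vehicle array. The adipocyte markers differed on these slides by 2.5 and -0.05, and their part in the interferon difference was not tested.

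The promoters of 4 members are printed because their values are described next and because they hold the letters of that element. The lines give the RefSeq sequence (GRCm38.p6) 5' to 3' of the window around each gene's start, and capitals mark every match to GAAA, any 2 letters, GAAA, or on the other strand TTTC, any 2 letters, TTTC, overlaps included. They lie at chr19:34583279-34583578 on the plus strand (Ifit3), chr4:156200769-156201068 on the minus strand (Isg15), chr5:120907476-120907775 on the minus strand (Oas1a) and chr3:142559794-142560093 on the plus strand (Gbp3).
Ifit3: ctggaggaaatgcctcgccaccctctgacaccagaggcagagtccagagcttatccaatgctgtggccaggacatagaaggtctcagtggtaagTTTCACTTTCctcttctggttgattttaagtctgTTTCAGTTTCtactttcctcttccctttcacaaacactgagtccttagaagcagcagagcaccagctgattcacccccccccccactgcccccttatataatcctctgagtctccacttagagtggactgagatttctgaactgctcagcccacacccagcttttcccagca
Isg15: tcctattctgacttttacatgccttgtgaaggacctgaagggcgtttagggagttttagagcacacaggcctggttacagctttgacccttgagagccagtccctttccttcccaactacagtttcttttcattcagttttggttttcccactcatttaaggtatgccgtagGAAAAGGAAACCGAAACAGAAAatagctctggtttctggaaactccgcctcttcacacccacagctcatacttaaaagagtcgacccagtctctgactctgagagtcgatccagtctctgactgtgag
Oas1a: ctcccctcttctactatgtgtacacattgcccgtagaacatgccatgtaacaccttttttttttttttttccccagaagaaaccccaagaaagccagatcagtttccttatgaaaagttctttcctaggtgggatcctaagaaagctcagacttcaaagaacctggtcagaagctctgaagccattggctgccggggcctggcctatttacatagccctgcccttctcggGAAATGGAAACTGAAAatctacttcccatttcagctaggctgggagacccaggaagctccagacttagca
Gbp3: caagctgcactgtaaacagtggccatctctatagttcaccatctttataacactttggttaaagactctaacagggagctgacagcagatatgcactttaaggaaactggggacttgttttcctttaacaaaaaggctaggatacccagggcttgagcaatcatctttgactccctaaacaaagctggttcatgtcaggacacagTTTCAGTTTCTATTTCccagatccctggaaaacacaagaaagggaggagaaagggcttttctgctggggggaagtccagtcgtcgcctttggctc

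Such a match occurred in 1079 of 27025 genes with a window (3.99%) and in 17 of the 24 list members that had one (70.8%). Ifit3 held 2 matches, the farther 156 bases before its start, Isg15 held 3 overlapping ones from 78 to 66 bases before, Oas1a 2 and the Gbp3 window shown 2. A gene counted as holding a match if any of its windows did, and a second window of Gbp3 held 0. Members with a match had a median difference of 1.25, between 0.27 and 2.14, and the 7 without had 1.55, between 0.50 and 1.73. Xaf1, whose window held no match, was among those 7.

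Antiviral effectors that act on viral RNA were among the most separated genes. Oas1a, an enzyme that makes the second messenger of RNase L, was at 5.32, 5.61, 5.03 and 5.18 with B20 and at 3.87, 3.0 and 3.51 with vehicle. The groups were more than 1 log2 unit apart at their nearest arrays, and the difference was 1.83 ± 0.43 (SE, a 3.55-fold higher signal). Ifit3, which binds foreign RNA with its relatives, was at 1.02, 1.71, 1.57 and 1.58 against -0.11, -1.32 and 0.04, a difference of 1.93 ± 0.45 (SE). Vehicle array 2 was the lowest of the 7 for both. Ifit3b, its neighbour and near-identical copy, differed by 2.14 ± 0.45 (SE), and signal on these 2 genes may be shared. Oas2 of the same synthetase family differed by 2.14 ± 0.54 (SE) and was chosen after its value was seen.

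Xaf1, an interferon-induced promoter of cell death, had the lowest p of the list. It was at 2.29, 2.69, 2.29 and 2.55 with B20 and at 1.34, 0.59 and 0.78 with vehicle. Every B20 array exceeded the highest vehicle array by a wide margin, and the difference was 1.55 ± 0.30 (SE, unadjusted p = 0.000155, limma adjusted p = 0.619). Isg15, a ubiquitin-like modifier chosen after its value was seen, was at 5.66, 6.44, 5.76 and 6.13 against 4.69, 3.50 and 4.51, a difference of 1.76 ± 0.46 (SE) without overlap.

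Interferon-induced GTPases attack the vacuoles of intracellular microbes. Gbp3 of this group was at 1.65, 1.78, 1.67 and 1.65 with B20 and at 0.63, 0.07 and 0.62 with vehicle, a difference of 1.25 ± 0.30 (SE). The B20 arrays were almost identical for this gene. Gbp2b differed by 1.98 ± 0.41 (SE) but was well above background on only 1 vehicle array, and the authors' value table gave 0.36. Iigp1, outside the list and the gene with a symbol that had the lowest p upward, was at 0.78, 1.01, 1.06 and 1.38 against -0.03, -0.53 and 0.00. Its groups were clearly apart, with a difference of 1.25 ± 0.21 (SE, unadjusted p = 5.14e-05, limma adjusted p = 0.338). Gm4951, a related GTPase gene, differed by 1.55 ± 0.29 (SE), and Cmpk2, an interferon-induced mitochondrial nucleotide kinase, by 0.91 ± 0.21 (SE).

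The signalling genes themselves differed by unequal amounts, and 2 are given here that were chosen after their values were seen. Irf7, which amplifies the type I response, differed by 1.73 ± 0.44 (SE) and Irf9 by 0.61 ± 0.17 (SE), both without overlap between groups.

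**Figure D3:**
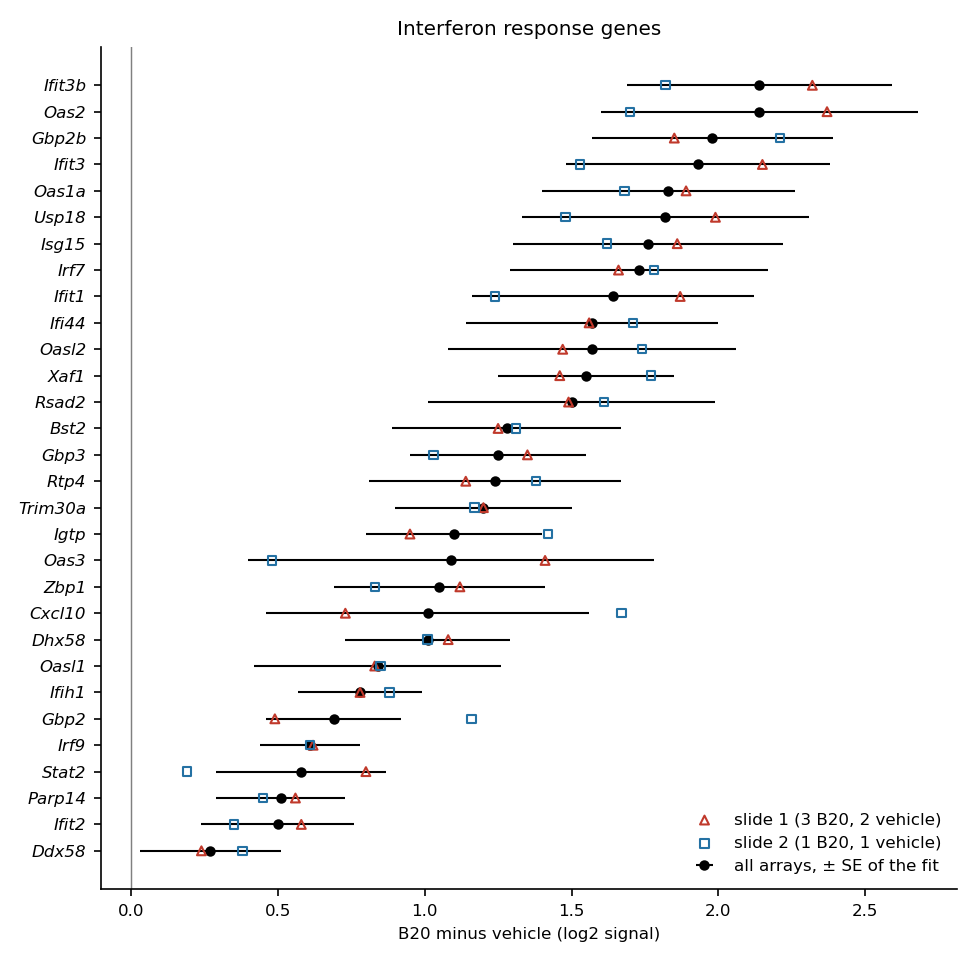
B20 minus vehicle difference (x axis, log2, points with SE) for 30 of the 31 interferon-stimulated genes tested, with triangles for slide 1 and squares for slide 2. Ifit3b and Oas2 lie farthest right at 2.14, and the member not shown is counted with the list in the text.

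Antigen presentation was higher by less. Of 13 MHC class I and processing genes 12 were higher, 2 of them without overlap (15.4% against 2.8% of all genes). The median was 0.37, or 0.18 with the authors' value table. Psmb9, an immunoproteasome subunit, differed by 0.50 ± 0.22 (SE) and B2m, the light chain of class I molecules, by 0.45 ± 0.26 (SE). Of 8 class II genes 7 were higher with a median of 0.26. H2-DMb1, which loads peptide onto class II, was at 3.49, 3.22, 3.38 and 3.38 with B20 and at 2.56, 2.85 and 2.94 with vehicle, a difference of 0.58 ± 0.18 (SE) with the groups apart.

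Neutrophil and interleukin-1 genes were higher in 18 of 20, 6 without overlap (30% against 2.8% of all genes), with a median of 0.54, or 0.18 in the authors' value table. Only 12 of the 20 were well above background on all 7 arrays. Mmp9, counted as without overlap, was well above background on 1 B20 array and 0 vehicle arrays. Within slide 2, 12 of the 20 were higher and 8 lower. Il1b, the cytokine interleukin-1 beta, was at 0.94, -0.16, 0.52 and 0.23 with B20 and at -1.27, -1.36 and -1.63 with vehicle. The lowest B20 array stood more than 1 log2 unit above the highest vehicle array, and the difference was 1.80 ± 0.42 (SE, unadjusted p = 0.000817, limma adjusted p = 0.999). S100a8, a calcium-binding alarmin of neutrophils, was at 4.70, 5.4, 5.73 and 4.43 against 4.32, 4.38 and 3.57, a difference of 0.97 ± 0.40 (SE). Its groups were apart by a narrow gap. The list mean differed by 0.84 within slide 1 and 0.19 within slide 2, and its median was 0.30 without B20 array 2 and 0.27 without vehicle array 2.

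Inflammatory signalling genes outside that list were mixed. Of 15 NF-kB targets 10 were higher, beside 55.1% of all genes, and 3 were without overlap (20% against 2.8% of all genes). The list median was 0.15, or 0.03 without vehicle array 2. Both values lay between the quartiles of all genes, -0.16 and 0.24. The feedback inhibitor Tnfaip3 differed by 0.55 ± 0.19 (SE) and Nfkbia, the inhibitor of NF-kB itself, by 0.32 ± 0.16 (SE), both with the groups apart. Il6 differed by 1.34 ± 0.54 (SE), but by 0.19 in the authors' value table. Ccl4, a chemokine for monocytes and lymphocytes that entered through its low p, was at -0.62, -1.43, -1.11 and -1.18 with B20 and at -2.71, -2.01 and -2.62 with vehicle. The difference was 1.36 ± 0.29 (SE), or 0.77 in the authors' value table, without overlap.

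Immediate early genes, transcription factors switched on within minutes of a stimulus, were higher in 16 of 20 with a median of 0.41, or 0.23 without B20 array 1, and none had separated groups. Fosb was at 1.58, -1.78, 0.78 and 1.49 with B20 and at -1.13, -2.11 and -0.64 with vehicle, so 3 B20 arrays were high and B20 array 2 was not. Its difference was 1.81 ± 0.68 (SE). Fos differed by 1.24 ± 0.53 (SE), or 0.73 without B20 array 1, and Atf3 by 0.67 ± 0.21 (SE).

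Acute phase genes, better known from liver, were higher in 8 of 11 with a median of 0.54. The serum amyloid Saa3 was at 1.72, 4.12, 2.33 and 0.59 with B20 and at 0.58, 0.74 and -0.83 with vehicle. B20 array 2 was far the highest, and the difference was 2.03 ± 0.68 (SE). Orm1, an orosomucoid, differed by 2.11 ± 0.70 (SE) without overlap, or by 0.77 in the authors' value table. Adipose tissue also makes these proteins, and the adipocyte markers differed in the same direction by a median of 1.85; their part in this difference was not tested.

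Proliferation genes were lower. All 24 mitosis genes tested were lower with B20, 9 of them without overlap (37.5% against 2.59% of all genes), with a median of -0.45 and a range of -0.52 to -0.35 over the alternatives. The list mean was 0.88, 1.46, 1.34 and 1.10 with B20 and 1.71, 1.71 and 1.49 with vehicle. The groups were apart by a narrow gap between B20 array 2 and vehicle array 3, and B20 array 1, which carried the most muscle signal, was lowest. Within slide 1 the difference was -0.48 and within slide 2, with 1 array in each group, it was -0.39. The muscle markers differed on these slides by 3.65 and -2.11, and their part in the mitosis difference was not tested. Of 24 DNA replication genes 21 were lower, 8 without overlap (33.3% against 2.59% of all genes), with a median of -0.30.

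Plk1, the kinase that drives mitotic entry and spindle assembly, was at 2.05, 2.42, 2.95 and 2.36 with B20 and at 3.48, 3.06 and 2.97 with vehicle, a difference of -0.72 ± 0.32 (SE). B20 array 3 and vehicle array 3 almost touched. The spindle factor Tpx2 differed by -0.71 ± 0.30 (SE), or -0.34 as the mean of its 2 probes, and Ube2c, which marks cyclins for destruction, by -0.67 ± 0.31 (SE). In the replication list Mcm3, a subunit of the replicative helicase, was at 1.55, 1.79, 2.14 and 1.91 against 2.40, 2.34 and 2.40. Its vehicle arrays were nearly equal and above all B20 arrays, with a difference of -0.53 ± 0.24 (SE). Mcm7 of the same helicase differed by -0.43 ± 0.19 (SE) and the licensing factor Cdt1 by -0.52 ± 0.23 (SE). Mki67, the usual proliferation marker, chosen after its value was seen, differed by -0.42 ± 0.26 (SE) with overlap.

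**Figure D4:**
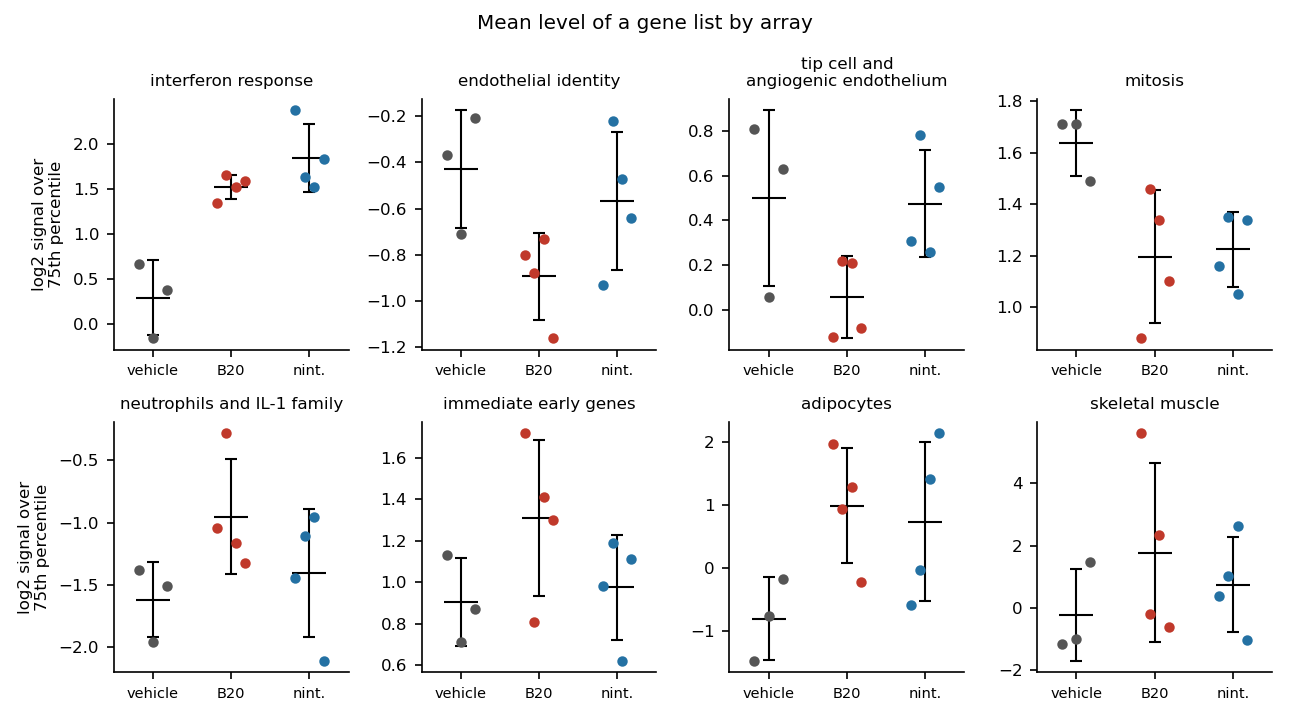
Mean level of 8 gene lists on each array (y axes, log2 signal relative to the 75th percentile of the array) for vehicle, B20 and nintedanib tumours, with group mean ± SD. Interferon genes (B20 1.52, vehicle 0.29) and mitosis genes (1.20 and 1.64) separate the 2 groups, while the muscle markers reach 5.61 on B20 array 1 alone.

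Hypoxia-induced genes were mostly higher with B20, but none had separated groups. Of 25 tested 20 were higher and 5 lower, with a median of 0.24, and the list mean differed by 0.45 within slide 1 and by -0.17 within slide 2. Adipocyte markers differed on the same slides by 2.5 and -0.05, as did Vegfa (1.14 and -0.40) and the neutrophil list (0.84 and 0.19) in the same order; the part of adipose tissue in these was not tested. Bnip3, which directs mitochondria to autophagy in low oxygen, was at 4.93, 5.32, 4.51 and 3.87 with B20 and at 3.98, 3.42 and 3.49 with vehicle. B20 array 4 lay inside the vehicle range, and the difference was 1.02 ± 0.47 (SE). Pgk1, a glycolytic enzyme and hypoxia target, differed by 0.68 ± 0.31 (SE), or 0.40 without B20 array 2, and Ankrd37, a hypoxia-induced ankyrin protein, by 0.66 ± 0.34 (SE), or 0.43 without vehicle array 2.

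Of 18 glycolytic genes 12 were higher with a median of 0.18, and of 50 subunits of oxidative phosphorylation 42 were higher with a median of 0.13, none called. These medians lie within the middle 50% of all genes, whose quartiles are given above. All 53 cytosolic ribosomal protein genes were higher by a median of 0.28, but quantile normalization gave 0.04 with 38 of 53 higher, and the authors' value table gave 0.04 with 35 of 53. For ER stress genes, 12 of 16 were higher with a median of 0.17, also within the middle 50% of all genes. The stress factor Ddit3 differed by 0.40 ± 0.19 (SE).

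Immune cell markers were mostly a little higher: 14 of 17 for T and NK cells (median 0.34), 7 of 9 for B and plasma cells (0.23), 11 of 18 for macrophages (0.17) and 7 of 8 for dendritic cells (0.14). The lowest medians over the alternatives were 0.11, 0.05, 0.03 and 0.02 in the same order. The B and plasma cell, macrophage and dendritic cell medians (0.23, 0.17 and 0.14) lay between the quartiles of all genes, -0.16 and 0.24. The macrophage count of 11 of 18 stands beside 55.1% of all genes higher in B20. Within slide 2, 7 macrophage markers were higher and 10 lower (mean -0.19), and 3 dendritic cell markers were higher and 5 lower (mean -0.22). Of the 9 B and plasma cell genes 5 were well above background on all 7 arrays. Cd79a of the B cell receptor differed by -0.44 ± 0.40 (SE), by -0.48 within slide 1 and -0.15 within slide 2. Its partner Cd79b went the other way. It was at -1.77, -2.86, -1.95 and -2.35 with B20 and at -3.63, -3.01 and -3.30 with vehicle. The groups were apart, and the difference of 1.08 ± 0.36 (SE) was 0.47 in the authors' value table. Cd3g of the T cell receptor differed by 0.92 ± 0.39 (SE) with overlap, or 0.53 in that table. Ccr7, which guides dendritic cells and T cells to lymph nodes, differed by 1.11 ± 0.44 (SE), or 0.73 there. The monocyte receptor Ccr2 differed by 0.71 ± 0.32 (SE), or 0.30 without vehicle array 1. The other cell type lists had medians of 0.27 (platelets, 7 genes), 0.11 (mast cells, 6), 0.12 (lymphatic endothelium, 5), 0.02 (basal epithelium, 10), 0.17 (skin, 6), 0.10 (milk genes, 10) and 0.11 (luminal epithelium, 16), and in these 7 lists 0 genes had separated groups. Heat shock proteins (9 genes) had a median of 0.09 and matrix proteases and their inhibitors (19) of 0.08.

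**Figure D5:**
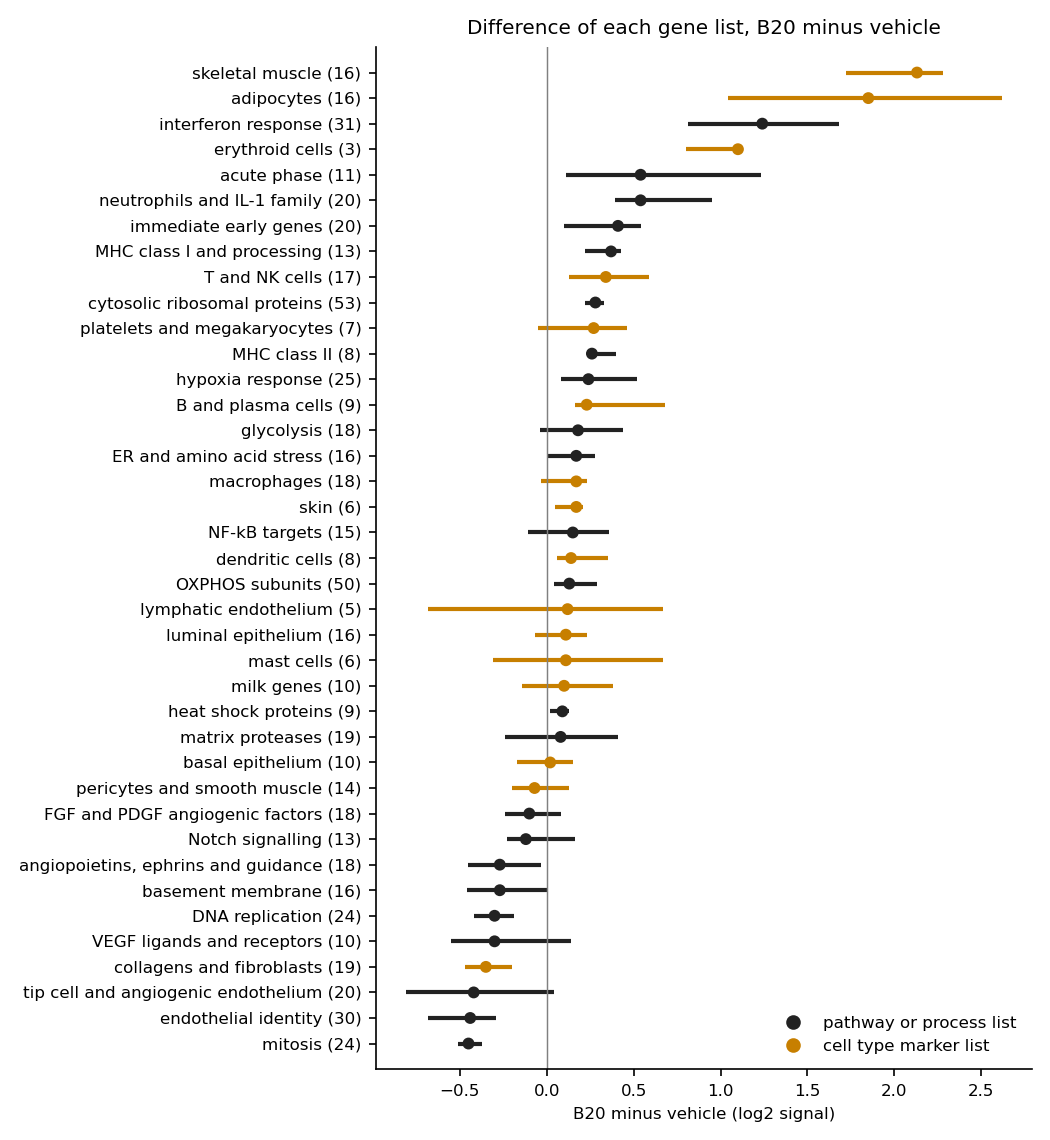
Median B20 minus vehicle difference (x axis, log2) of each of 39 gene lists with the quartiles of its members, pathway lists in black and cell type markers in orange. The interferon list (1.24) lies above all other pathway lists, adipocyte (1.85) and muscle markers (2.13) lie farther out, and mitosis (-0.45) and endothelial identity (-0.44) are lowest.

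Outside the lists, the genes with the lowest p among those lower in B20 held several without a known place in the vasculature. Ccny, a membrane-bound cyclin, was at -1.49, -2.87, -1.14 and -1.09 with B20 and at 0.03, -0.71 and 0.30 with vehicle, a difference of -1.52 ± 0.40 (SE) without overlap. Fbxl7, an F-box protein of ubiquitin ligases, differed by -0.88 ± 0.24 (SE), the glutamine carrier Slc38a1 by -0.95 ± 0.30 (SE) and the transcription factor Gtf2ird1 by -0.60 ± 0.19 (SE), all with separated groups. Dlk1, a Notch-like inhibitor of fat cell formation, differed by -1.64 ± 0.51 (SE), or -0.63 with normexp. Dio3, from the same imprinted domain, which inactivates thyroid hormone, differed by -1.37 ± 0.42 (SE), or -0.46 with normexp. Both were dim, as was the carboxylesterase Ces2e (-0.74 ± 0.19 SE, or -0.18 with normexp).

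Set directly against B20, nintedanib showed 0 genes called by limma (0%) with a lowest adjusted p of 0.517. An unadjusted p under 0.05 was reached by 2629 of the 28025 genes, beside 912 for B20 against vehicle. Both drugs share the vehicle arrays, so no overlap or correlation of their comparisons with vehicle is given, but their levels side by side and the direct test. The interferon list mean was 1.52 ± 0.14 (SD over the 4 arrays) with B20, beside 1.84 ± 0.38 (SD over 4) for nintedanib and 0.29 ± 0.42 (SD over 3) for vehicle. The endothelial identity list stood at -0.89 ± 0.19 (SD) with B20, -0.56 ± 0.30 (SD) with nintedanib and -0.43 ± 0.25 (SD) with vehicle. The mitosis list stood at 1.20 ± 0.25, 1.23 ± 0.15 and 1.64 ± 0.12 (SD).

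Endothelial identity genes had higher levels with nintedanib than with B20 in 25 of 30, with a median nintedanib minus B20 difference of 0.33, and tip cell genes in 17 of 20, with a median of 0.39. For the 18 angiopoietin, ephrin and guidance genes the count was 9 and the median -0.01. Among 53 cytosolic ribosomal protein genes the count was 0, with a median of -0.43. The share of all genes higher with nintedanib is not given, so the list counts here and in the next paragraph have no background. Nintedanib minus B20 was 1.51 ± 0.42 (SE) for Col4a2, 1.07 ± 0.34 (SE) for Tie1, 1.02 ± 0.32 (SE) for Plvap and 1.01 ± 0.25 (SE) for the apelin receptor Aplnr, the last 2 chosen after their values were seen (limma adjusted p = 0.517 for each). Col4a2 and Tie1 had been named for their low values on the same B20 arrays. Other vessel genes lay the other way, at -0.55 ± 0.25 (SE) for Kdr on its brighter probe, -0.68 ± 0.21 (SE) for Cxcr4 and -0.53 ± 0.19 (SE) for the Notch ligand Jag1. The probes of Kdr had opposite signs against vehicle, and Cxcr4 had been named for its high values on the same B20 arrays.

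Neutrophil and interleukin-1 genes had higher levels with nintedanib than with B20 in 5 of 20, with a median nintedanib minus B20 difference of -0.36. The counts were 4 of 20 for immediate early genes (median -0.16), 9 of 15 for NF-kB targets (0.04) and 25 of 31 for interferon genes (0.25). The differences were -1.33 ± 0.39 (SE) for Il1b, -1.23 ± 0.37 (SE) for S100a8 and -0.76 ± 0.20 (SE) for the early response factor Klf6 (limma adjusted p = 0.517 for each), genes named for their high values on the same B20 arrays. Esm1 differed between the drugs by 0.77 ± 0.59 (SE), and at -1.83 ± 0.93 (SD) with nintedanib its mean lay nearer to B20 (-2.60 ± 1.05 SD) than to vehicle (-0.05 ± 0.79 SD).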

How the data were processed

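Agilent 1-colour arrays of total RNA from 15 tumour samples were analysed. Per the file headers, the authors scanned them with Feature Extraction 10.7.3.1, and deposited a processed signal per spot, an intensity after background subtraction, with median signal and background intensity. The authors also deposited a flag (a score of 0 or 1) for signal well above background and a table of log2 values, which correlated at 0.999959 or more with quantile-normalized normexp values (offset 50). Per the file headers, the array design is annotated to mm9. Control and outlier spots were left out (82 probe values missing). Log2 processed signal minus each array's 75th percentile was analysed, keeping probes well above background on 3 or more arrays and the brightest probe per gene. This left 28025 genes, 16096 with a symbol and 11929 unnamed here. Arrays had median raw signals of 55 to 102 over backgrounds of 19 to 26, with 57.9 to 65% of probes well above background on B20 and vehicle arrays and no saturated spot. An array from before treatment stood apart at 84.2% and enters only the shared spread. The number of arrays limits the precision.

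limma 3.58.1 in R 4.3.3 fitted 4 group means to all 15 arrays, two-sided, with Benjamini-Hochberg adjustment over all genes. The pipeline was tested on simulated data. The files hold no mean signal, so normexp used median signal. The members and the gene lists were chosen with earlier results of these data known. Some genes count in several lists, so the lists are not independent of each other. Named genes were all VEGF ligands and receptors, of each other list the 4 members with the lowest p, and the 10 named genes with the lowest p in each direction among those well above background on all 7 arrays. Alternatives covered background correction, normalization, the authors' table, filters, probes, slide, replicate block, array weights and leaving out arrays. Leaving out the array at 84.2%, and fitting only the arrays from the end of treatment, were chosen after seeing the data. Of the lists, Mx1, Mx2 and other genes without a matching symbol were not analysed here, and 1 measured member of the interferon list, which is in its counts, is not reported here by itself. Promoters came from RefSeq (32851 windows of 27025 genes).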

Additional observations from a re-analysis of the deposited data

Results flagged for a closer look

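Among 157 values examined over the 4 B20 arrays, 8 had an array whose gap to its nearest neighbour was large for the range of the group. Chance flags about 1 group in 20. B20 array 2 was the outlying array for Trp53i11 (2.78), Thbs2 (0.71), Gbp3 (1.78), Foxa1 (-4.38), a luminal lineage factor, and Arg1 (3.59), the arginase of some macrophages. For Trp53i11 and Gbp3 the other 3 arrays were nearly equal, so the gap is small in size. B20 array 4 was outlying for Tie1 (-3.66) and for the mean of the NF-kB target list (0.03), and B20 array 3 for the protease Mmp9 (-4.91), which was well above background on 1 B20 array only.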

How the results depend on the processing

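Each of the 22 alternatives left 0 genes called for B20 against vehicle. Genes at an unadjusted p under 0.05 numbered 525 with median scaling and 1645 with array weights. With the replicate block there were 808, and 0 called, but same-numbered B20 and vehicle arrays deviated together at only 0.01, 0.25 and 0.04 (correlations), so the numbers were not taken as pairs. Leaving out vehicle array 1 called 1 gene for nintedanib against B20, where the range was 0 to 1. Genes whose groups did not overlap came to 9.97% higher and 8.5% lower on slide 1 alone, and to 4.08 to 8.3% and 3.35 to 6.6% when a B20 or vehicle array was left out, since fewer arrays separate more often (2.8 and 2.59%, as with all arrays, without an array from before treatment). Signs turned for Flt4 and Dll4 with normexp (0.04 each), for the heat shock protein Hspa8 with quantile normalization (-0.01), for Kdr with averaged probes (-0.20), for Vegfd (0.21) and Flt1 (0.04) on slide 1 alone, and for Dll4 with array weights (0.09). Leaving out 1 array gave ranges that crossed 0 for Pgf, Vegfb, Flt1 and Dll4 (-0.18 to 0.57, -0.25 to 0.09, -0.50 to 0.08 and -0.47 to 0.15). Under at least 1 alternative the median changed sign for the VEGF, Notch, FGF and PDGF, pericyte, lymphatic, mast cell, luminal, milk, basal, skin and matrix protease lists. The causes were not tested. Interferon, mitosis and endothelial medians kept their direction in all 22.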
